A study of Pseudotsuga menziesii with 66 samples.

Results

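A set of 200 transcripts that reached their highest mean level on 6 May 2011 was followed through a year in needles of Douglas-fir (Pseudotsuga menziesii), an evergreen conifer of western North America. The set was taken from 199471 transcripts in the count table. Levels are in CPM, the count of a transcript divided by the total of its library and scaled to the same total for every library, and were averaged over the libraries of each of 16 collection dates. Kept were 4708 transcripts with a mean of the date means of 10 to 1000 CPM and a highest date mean at least 4 times the lowest (the lowest floored at 0.1 CPM). Of these, 313 (6.65%) were highest on 6 May, in 250 of them every library of 6 May lay above the 16-date mean, and the 200 with the largest ratio of 6 May to the mean of the other dates are the members. They were thus chosen by their measured levels on 6 May. Everything that sets 6 May against another date is therefore a description of how the members were chosen and carries no test.

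The needles came from 5 trees, all of low-elevation Oregon Siskiyou seed: CCTO44 and CCTO90 of the higher seed source, and CCTO43, CCTO46 and CCTO89 of the lower. The trees grew untreated in a nursery garden at Central Point, Oregon, a warm and dry site like that of their origin. Every sample pooled needles of the set formed in 2010, taken at about noon from 4 sides of a tree, so the age of the needles rises with the date. A group is a date and its replicates are the trees, with 5 libraries on most dates up to 10 Mar 2011, then 4 until 17 Aug, and after that 2 (7 Sep) or 3 (both October dates of 2011). The libraries of 6 May came from CCTO44, CCTO46, CCTO89 and CCTO90. CCTO43 had no library between 10 Mar and 7 Oct 2011.

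The design text of the study counts 73 libraries, of which 66 were analysed here, and these held 9924771 to 37373284 counts, those of 6 May 14259890 to 22927377. The CCTO43 library of 26 Oct 2011 stood apart, with the lowest normalization factor of all (0.549, from the trimmed mean of M values, TMM, which corrects for a few transcripts taking a large share of the counts). The 17 Aug libraries of CCTO44 and CCTO46 were the only ones of 66 whose values did not follow those of their own tree best. In deviations from the date means over transcripts (log2 scale), the CCTO44 library of that date had a mean correlation of 0.60 with the libraries of CCTO46 and -0.36 with those of its own tree, and the CCTO46 library 0.60 with those of CCTO44 and -0.34 with its own. The 17 Aug values of these trees may be exchanged, and they are used here as labelled. On 6 May the TMM factors were 0.695 to 0.945, and on 6 Jan 1.11 to 1.19. CPM by library total is thus lower on 6 May than TMM-scaled levels would be, and which transcripts peak there depends on the scale.

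In a temperate conifer the needles stay on the branch for several years and change function with the season. Photosynthesis is held down in winter while the leaf is frost-hardy, and is restored in spring as days lengthen and the air warms. Buds then open, and the new shoot draws carbon and nitrogen in part from the older needles. The 6 May collection falls within spring, but the files give no bud stage for it. They also do not pair the identifiers with gene names or sequences, so members are given by identifier, no function is given for any of them, and the needle itself could not be checked against marker genes.

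The members stood lowest in winter and highest on 6 May, and lower again through summer. Together they held 0.58% ± 0.0443 of all counts on 6 Jan (SD, n = 5), 1.66% ± 0.31 on 7 Apr (n = 4), 2.71% ± 0.403 on 6 May (n = 4) and 2.1% ± 0.142 on 17 Jun (n = 4). By 28 Jul the share was 1.43% ± 0.0897 (n = 4) and on 26 Oct 2011 it was 0.901% ± 0.136 (n = 3). The 6 May share was highest in CCTO44, at 3.24%, followed by CCTO90 at 2.69%, CCTO46 at 2.68% and CCTO89 at 2.25%. In CCTO89 the sum changed little to 17 Jun, when it was 2.17%, whereas CCTO44 then stood at 1.89%. These are whole-needle samples, in which fewer cells of a type and less RNA per cell cannot be told apart.

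**Figure D1:**
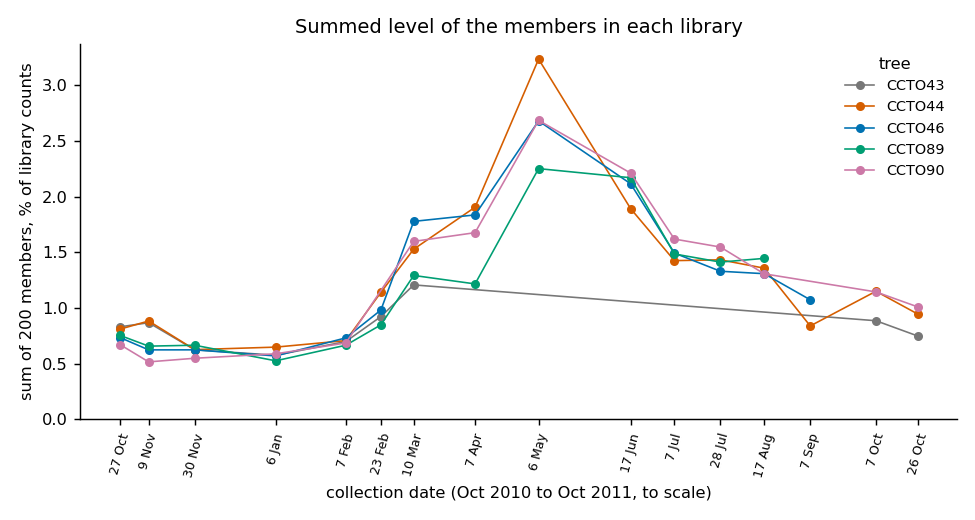
Sum of the 200 members as a percentage of the counts of each library (vertical axis) by collection date (horizontal axis, to scale), with a point for each of 66 libraries and a line for each tree. The 6 May libraries lie between 2.25% and 3.24%, and the 6 Jan libraries between 0.524% and 0.647%.

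Levels were above those of midwinter well before May. The median member stood at 20.3% of its 6 May level on 6 Jan, 24.6% on 7 Feb, 35.4% on 23 Feb, 51.8% on 10 Mar and 60.5% on 7 Apr. After the peak it stood at 75.9% on 17 Jun, 56.1% on 7 Jul, 49.8% on 28 Jul and 46.8% on 17 Aug. It was at 32.1% on 7 Sep and 36.25% on 7 Oct. On 26 Oct 2011 it was at 28.8%, close to the 26.9% of 27 Oct 2010. The descent from May to August was thus shallower than the climb from February to May.

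The peak was broad in most members. The date with the next highest mean was 17 Jun for 104 members, 7 Apr for 39, 10 Mar for 24 and 7 Jul for 15. The 6 May mean exceeded the next one by a median of 1.22-fold, by under 1.1-fold in 52 members and by 2-fold or more in 4. A median of 5 dates (range 1 to 10) lay at or above 50% of the peak. The lowest date was 30 Nov for 59 members and 6 Jan for 52, but 54 members were lowest between 7 Sep and 26 Oct 2011. Of these 54, 33 were lowest on 7 Sep, 21 on 26 Oct and 0 on 7 Oct. The 7 Sep means rest on 2 libraries, of CCTO44 and CCTO46, whose TMM factors were 0.736 and 0.913. By date means the lowest date thus fell on 30 Nov or 6 Jan for some members and in September or October for others. This was not tested. The same rule found 158 transcripts for 7 Apr and 53 for 17 Jun, with a median ratio to the next date of 1.18 and 1.08 and a median of 6 and 8 dates at or above 50% of the peak. No test of these differences was made.

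**Figure D2:**
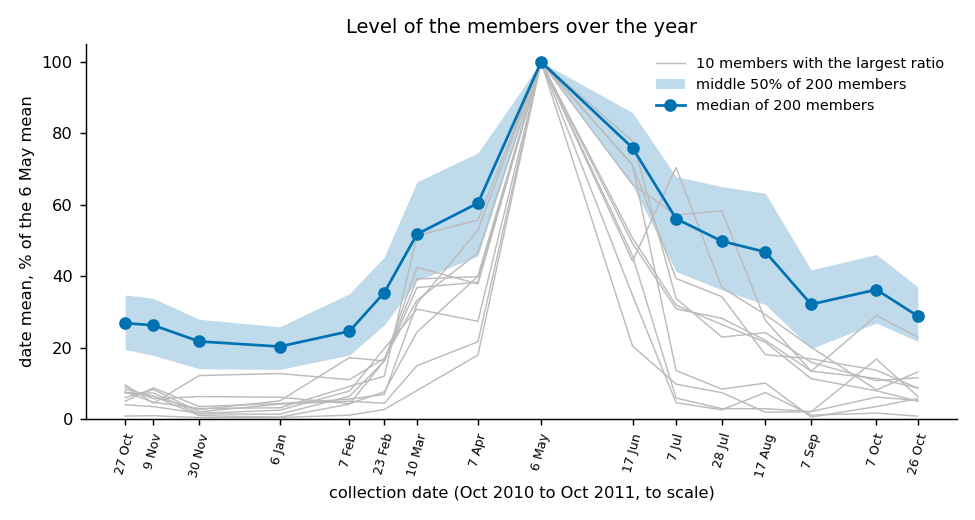
Mean level on each date as a percentage of the 6 May mean (vertical axis) by collection date (horizontal axis, to scale), for the median member, the middle 50% of the 200 members (band) and the 10 members with the largest ratio (thin lines). The median stands at 20.3% on 6 Jan, 60.5% on 7 Apr and 75.9% on 17 Jun, and the thin lines lie below the median in winter.

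The ratio of 6 May to the mean of the other dates ran from 10.3 down to 1.92 with a median of 2.34, and 43 members reached 3 or more. Just inside the limit stood psme_t019505 (1.918), psme_t029662 (1.917) and psme_t027019 (1.917), and just outside it psme_t041211 (1.915), psme_t026233 (1.915) and psme_t031639 (1.909). The limit thus falls in a continuous series of values and marks no gap. The mean level of a member over the year had a median of 30.4 CPM and ranged from 10.2 to 815 CPM.

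The member with the largest ratio, psme_t084984, was near 0 in winter and high in spring. On 6 Jan it stood at 4.37 CPM in CCTO43, 1.41 in CCTO44, 1.23 in CCTO46, 0.109 in CCTO89 and 2.1 in CCTO90. On 7 Apr it stood at 158 CPM in CCTO44, 35.6 in CCTO46, 8.72 in CCTO89 and 88.8 in CCTO90. On 6 May the same trees had 701, 325, 257 and 343 CPM. All 4 trees were higher on 6 May than on 7 Apr, and no library of one date overlapped the other. On 17 Jun the trees parted: CCTO44 had 173 CPM, CCTO46 36.6 and CCTO90 125, all below their own May level, while CCTO89 had 822. In that tree the highest level was therefore on 17 Jun. On 7 Jul the levels were 39.7, 12.4, 101 and 68 CPM in CCTO44, CCTO46, CCTO89 and CCTO90.

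A spring peak followed by a late-summer trough was seen in psme_t043043. Its 6 May level was 249 CPM in CCTO44, 141 in CCTO46, 278 in CCTO89 and 181 in CCTO90. On 7 Apr these trees had 138, 94.1, 21.5 and 141 CPM, so that CCTO89 was far below the others. On 17 Jun they had 64.1, 27.5, 244 and 52.2 CPM, and CCTO89 was now far above them. By 7 Jul all 4 were low, at 8.86, 5.46, 9.47 and 26.2 CPM, and the mean of 7 Sep was 4.48 CPM (n = 2). The winter level of 27.1 CPM ± 9.73 on 6 Jan (SD, n = 5) was above that of August, 6.22 ± 5.09 (n = 4). This member was thus lowest in late summer, not in winter.

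The trees differed more for psme_t025435, the next in ratio, which had 46.2 CPM on 6 May in CCTO44, 216 in CCTO46, 130 in CCTO89 and 22.5 in CCTO90. In CCTO44 its level on 7 Apr, 77.8 CPM, was above that of May, as it was in CCTO90 with 44.4 CPM. Its May peak thus rests on CCTO46 and CCTO89. For psme_t042446 the 6 May levels were 60.6, 49.1, 150 and 96.7 CPM in CCTO44, CCTO46, CCTO89 and CCTO90, and CCTO44 had been higher on 10 Mar, at 96.3 CPM. By contrast psme_t105383 was even across trees in May, with 94.9, 78.4, 88.8 and 84.7 CPM. Only in CCTO44 did a level on 7 Jul, 96.7 CPM, come up to that of May.

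The members psme_t006972 and psme_t004114 had similar levels on 6 May. On 6 May psme_t006972 had 22.8, 47, 79 and 49.3 CPM in CCTO44, CCTO46, CCTO89 and CCTO90, and psme_t004114 had 20.2, 46, 85.8 and 59.1. In both CCTO89 was the highest and CCTO44 the lowest. On 6 Jan the means were 0.277 CPM ± 0.107 and 0.727 ± 0.46 (SD, n = 5). The remaining members among the 10 with the largest ratio were psme_t042307, psme_t054010 and psme_t042799, with May means of 192 ± 91.6, 99 ± 48.4 and 65.9 CPM ± 9.97 (SD, n = 4). Their means on 6 Jan were 8.41 ± 1.5, 4.16 ± 1.7 and 2.09 CPM ± 1.7 (n = 5).

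The most abundant members had broad peaks. The highest mean was that of psme_t029771, with 2082 CPM on 6 May in CCTO44, 1403 in CCTO46, 913 in CCTO89 and 1868 in CCTO90. On 17 Jun it had 1337, 1719, 1176 and 1749 CPM in the same trees, so that CCTO46 and CCTO89 were higher on 17 Jun and the others on 6 May. The next, psme_t018186, had 1679, 1624, 1287 and 1577 CPM on 6 May and 1254, 1617, 1632 and 1591 on 17 Jun. Its levels on those dates overlapped and its date means differed by a factor of 1.01. On 6 Jan it lay between 188 and 221 CPM in all 5 trees. For psme_t030090 the 6 May levels were 1604, 1153, 1028 and 1153 CPM, with only CCTO44 well above its 17 Jun level of 897 CPM. At the other end, psme_t027019 had 39.1, 22.2, 21.2 and 27.8 CPM on 6 May and 23.6 CPM ± 2.66 on 7 Jul (SD, n = 4), and CCTO44 alone stood clearly above its summer level.

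**Figure D3:**
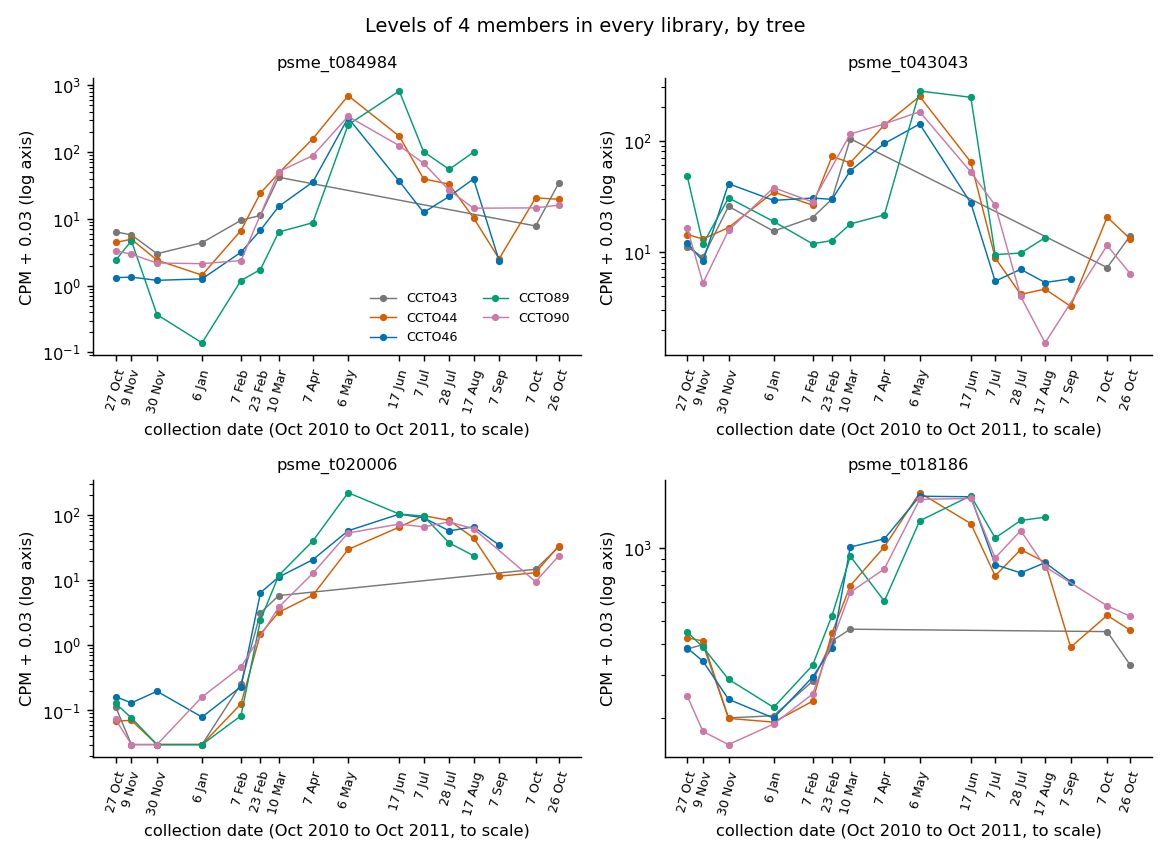
Levels of psme_t084984, psme_t043043, psme_t020006 and psme_t018186 in every library (vertical log axis, CPM + 0.03, so that a count of 0 sits at 0.03) by collection date (horizontal axis, to scale), with a line for each tree. CCTO89 is highest on 17 Jun for psme_t084984, at 822 CPM, and on 6 May for psme_t020006, at 220 CPM.

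The members parted in summer. Those at or above 50% of their May level on 28 Jul were 100, those between 25% and 50% were 82, and those under 25% were 18. In the 100 the median stood at 83.4% on 17 Jun, 63.2% on 17 Aug and 40.1% on 7 Sep, a date with only the libraries of CCTO44 and CCTO46. In the 18 it stood at 59.5% on 17 Jun, 20.5% on 7 Jul and 14.8% on 7 Sep. These 18 had a higher level in midwinter (28.7% on 6 Jan) than in late summer, whereas the 100 were at 20.2% on 6 Jan. The classes were cut on the 28 Jul level at values chosen for description and lie on a continuum.

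Most members did not peak on 6 May in every tree. Within the dates of each tree, 81% of the 200 were highest on 6 May in CCTO44, 63% in CCTO46, 62.5% in CCTO90 and 48% in CCTO89. The date that took the others was most often 17 Jun in CCTO89 (64 members) and CCTO90 (32), and rarely in CCTO44 (1). Members above their 6 May level on 17 Jun numbered 6 in CCTO44, 28 in CCTO46, 46 in CCTO90 and 80 in CCTO89. The median member changed from 6 May to 17 Jun by -0.74 on the log2 scale (CPM + 0.5) in CCTO44, -0.39 in CCTO46, -0.32 in CCTO90 and -0.11 in CCTO89. Over the 4708 transcripts of like level and range the median changed by 0.20, 0.16, -0.13 and -0.09 in that order. On 7 Apr the median member differed from 6 May by -0.81 in CCTO44, -0.57 in CCTO46, -0.61 in CCTO90 and -1.02 in CCTO89, and the median of the 4708 by 0.30, 0.31, 0.30 and -0.28. Because the libraries of these trees chose the members, these counts are descriptions.

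To read the peak in samples that took no part in the choice, the members were chosen again without a tree and their highest date was then read in that tree alone. In CCTO44, 122 of 192 transcripts so chosen (63.5%) were highest on 6 May, against 7.77% of the 4777 transcripts of like level and range. In CCTO46 they were 114 of 200 (57%, against 5.97%) and in CCTO90 109 of 200 (54.5%, against 5.64%). In CCTO89 they were 71 of 200 (35.5%, against 4.99%), fewer than the 77 that were highest on 17 Jun there (38.5%, against 4.97%). The 6 May level of the left-out tree exceeded the mean of its other dates by a median of 2.31-fold in CCTO44, 2.11-fold in CCTO46, 2.17-fold in CCTO90 and 1.82-fold in CCTO89. The trees of a date share its weather and collection hour, so a left-out tree is a separate sample but not a separate spring. With TMM-scaled levels the counts were 171, 146, 84 and 74 of 200 in CCTO44, CCTO46, CCTO90 and CCTO89, and the background was 21.6%, 15.8%, 6.86% and 7.6%. On that scale 70 were highest on 17 Jun in CCTO90, against a background of 12.35%, and 77 in CCTO89, against 10.96%. Without the 17 Aug libraries of CCTO44 and CCTO46 the CPM counts were 130 of 192 in CCTO44 and 118, 111 and 74 of 200 in CCTO46, CCTO90 and CCTO89. The background was 8.57%, 6.51%, 5.8% and 4.96% in that order. In CCTO89 77 were then highest on 17 Jun, a date for which no background was taken in this setting.

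**Figure D4:**
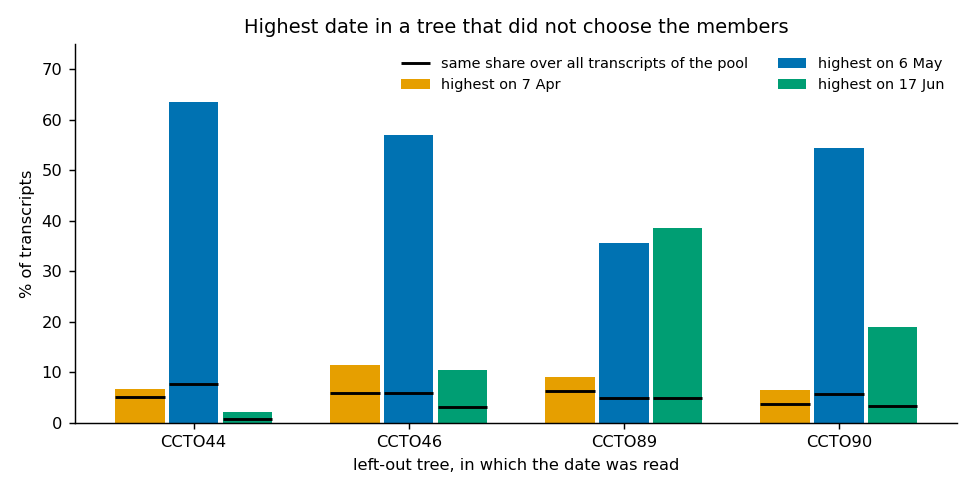
Percentage of transcripts chosen without a tree (vertical axis) that were highest on 7 Apr, 6 May or 17 Jun in that tree (horizontal axis), as bars, with black lines for the same share over all transcripts of like level and range. The 6 May bars reach 63.5%, 57%, 35.5% and 54.5% in CCTO44, CCTO46, CCTO89 and CCTO90, and the 17 Jun bar of CCTO89 is 38.5%.

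Dates other than 6 May were compared in a model of all 66 libraries with the tree as a block (edgeR quasi-likelihood F test, Benjamini-Hochberg adjustment over 60931 transcripts). Every date entered the mean to which the rule compared 6 May, so these tests are not wholly independent of the choice. The rule bears on a pair through the lowest date. It may also favour the date nearer to 6 May, since levels that change gradually stand higher close to a chosen peak. How much of each count follows from the choice was not tested. The background is the share of all transcripts tested that passed in the same direction, followed by the share of the 4708 of like level and range. Neither of these groups was chosen for a peak on 6 May.

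On either side of the peak the levels were not symmetric, and more members were higher on 17 Jun than on 7 Apr. Of the 200, 57 were higher on 17 Jun (28.5%, against 7.75% of all tested and 15.7% of the 4708) and 1 was lower (0.5%, against 11.2% and 21.5%). The median change was 0.41 on the log2 scale, where that of all transcripts tested was -0.10. The trees differed in size, with a median change of 0.05 in CCTO44, 0.23 in CCTO46, 0.69 in CCTO89 and 0.76 in CCTO90. Without the tree as a block 33 were higher and 0 lower.

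The largest increase from 7 Apr to 17 Jun was that of psme_t029262, from 3.88, 9.75, 21.2 and 6.21 CPM in CCTO44, CCTO46, CCTO89 and CCTO90 to 44.9, 59.1, 55.7 and 38.1 CPM. All trees of 17 Jun lay above all of 7 Apr (log2 change 2.45, SE 0.446, edgeR adjusted p = 5.49e-05). On 6 May the same trees had 21.4, 31.3, 122 and 31.8 CPM. In CCTO89 the May level was the highest of the 3 dates, whereas in CCTO44, CCTO46 and CCTO90 it lay between those of April and June. Its place among the members thus rests on CCTO89. The same holds for psme_t020006, with 29.6, 57.2, 220 and 52.9 CPM on 6 May and 65.1, 103.01, 103.45 and 72.6 on 17 Jun (log2 change from 7 Apr to 17 Jun 2.32, SE 0.434, edgeR adjusted p = 8.1e-05). Only psme_t036832 was lower on 17 Jun, with 56.4, 39.9, 51.4 and 43.3 CPM against 135, 98.5, 69.1 and 62.4 on 7 Apr (log2 change -0.81, SE 0.263, edgeR adjusted p = 0.0234). That call was lost without CCTO44, CCTO46 or CCTO89.

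Between 10 Mar and 7 Apr few members passed the threshold. On 7 Apr 20 were higher (10%, against 2.74% of all tested and 6.07% of the 4708) and 2 lower (1%, against 2.06% and 6.73%), with a median change of 0.26 on the log2 scale. The trees did not move alike: the median change was 0.48 in CCTO44 and -0.22 in CCTO90. Without CCTO44 11 members were higher and without CCTO89 12 were. Of these dates 7 Apr is nearer to the chosen peak, so part of the rise may follow from the choice, which was not tested.

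The clearest early rise was that of psme_t032604. On 10 Mar it had 2.64, 0.998, 0.329, 0.25 and 0.268 CPM in CCTO43, CCTO44, CCTO46, CCTO89 and CCTO90, and on 7 Apr 6.14, 10.7, 10.2 and 3.43 CPM in the last 4 (log2 change 4.07, SE 0.462, edgeR adjusted p = 3.38e-08). No library of either date overlapped the other. On 6 May it had 47.5, 27.2, 54.6 and 13.9 CPM, and CCTO46 went on to 61.3 CPM on 17 Jun. The increase of psme_t020006 over the same interval (log2 change 1.51, SE 0.407, edgeR adjusted p = 0.0183) was lost as a call whichever of the 5 trees was left out.

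The 2 members that were lower on 7 Apr had a dip in April rather than a steady rise. Levels of psme_t020822 were 31.4, 82.8, 53.2 and 47.1 CPM on 10 Mar in CCTO44, CCTO46, CCTO89 and CCTO90, 16.7, 38.1, 20.3 and 20.4 on 7 Apr, and 60.6, 81.9, 96.8 and 64.5 on 6 May. Each tree was lowest on 7 Apr of these 3 dates (log2 change from 10 Mar to 7 Apr -1.02, SE 0.261, edgeR adjusted p = 0.0115). For psme_t042247 the levels were 28.8, 45.3, 34.6 and 48.5 CPM on 10 Mar, 19.9, 19.4, 6.29 and 18.7 on 7 Apr and 42.7, 30.8, 25.6 and 44.3 on 6 May (log2 change -1.20, SE 0.333, edgeR adjusted p = 0.0226). Its date means of 10 Mar and 6 May, 35.8 and 35.9 CPM, were nearly the same. Both calls were lost without CCTO46 or CCTO89, psme_t020822 also without CCTO44 and psme_t042247 without CCTO90.

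From 17 Jun to 7 Jul many of the members fell. Of the 200, 96 were lower on 7 Jul (48%, against 7.94% of all tested and 17.0% of the 4708) and 0 higher (against 9.93% and 23.6%). At an unadjusted p under 0.05 in edgeR 131 members passed in either direction, against 18457 of all tested, and DESeq2 found 117 lower, against 6428 of all tested and 1000 of the 4708. The median change was -0.69 on the log2 scale, where that of all transcripts tested was 0.02, and 189 members had a negative change. The 4 trees were close to each other here, with median changes of -0.69 in CCTO46, -0.66 in CCTO90 and CCTO89, and -0.62 in CCTO44. Without the tree as a block 48 were called lower. Of these dates 17 Jun is nearer to the chosen peak, so part of the fall may follow from the choice, which was not tested.

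The largest fall was that of psme_t043043, whose levels are given above (log2 change -2.91, SE 0.656, edgeR adjusted p = 0.00113). That of psme_t025435 was from 42, 5.2, 93.8 and 2.78 CPM in CCTO44, CCTO46, CCTO89 and CCTO90 to 3.96, 5.3, 8.29 and 1.45 (log2 change -2.59, SE 0.916, edgeR adjusted p = 0.0416). In CCTO46 the CPM of psme_t025435 was not lower, the trees overlapped, and the call was lost without CCTO44, CCTO46, CCTO89 or CCTO90. Of the abundant members psme_t018186 fell from 1254, 1617, 1632 and 1591 CPM to 765, 851, 1095 and 906, with no overlap (log2 change -0.95, SE 0.226, edgeR adjusted p = 0.00187). For psme_t029771 the change was -0.97 (SE 0.263, edgeR adjusted p = 0.00639).

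A higher level on 17 Jun than on 7 Apr and a fall to 7 Jul were both called in 24 members. The first alone was called in 33, the second alone in 72 and neither in 71. The same joint count was not made over all transcripts tested, so nothing is read from it. The comparisons share the libraries of 17 Jun, so the overlap is given as a count only.

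**Figure D5:**
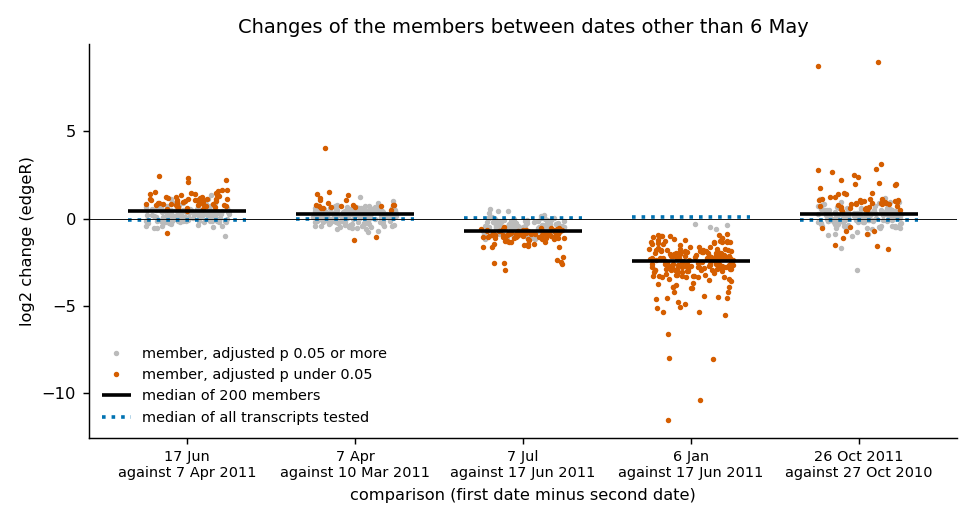
Log2 change of each of the 200 members (points, vertical axis, edgeR) in 5 comparisons of dates that leave out 6 May (horizontal axis, first date minus second date), coloured by adjusted p, with the median of the members (black) and of all transcripts tested (dotted). The black lines stand at 0.41, 0.26, -0.69, -2.44 and 0.28.

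In midwinter the members were far below their level in June. On 6 Jan 196 of the 200 were lower than on 17 Jun (98%, against 27.3% of all tested and 33.5% of the 4708) and 0 were higher (against 30.5% and 51.0%), with a median change of -2.44 on the log2 scale. At an unadjusted p under 0.05 in edgeR the number was also 196, against 37635 of all tested, and DESeq2 found 196 lower, against 15171 of all tested and 1538 of the 4708. The rule asked for a range of at least 4-fold, and 6 Jan or 30 Nov was the lowest date in 111 members, so this count follows in part from the choice and nothing is read from it.

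Detection itself changed over the year in psme_t020006 and psme_t029262. On 6 Jan psme_t020006 had 4 counts in all over 5 libraries, 3 of them at 0, and psme_t029262 had 5 counts with 2 libraries at 0. On 17 Jun the sums over 4 libraries were 7260 and 4166 counts, or 86 CPM ± 20.1 and 49.4 CPM ± 9.71 (SD, n = 4). The increase came after 7 Feb, from 0.202 CPM ± 0.149 (n = 5) for psme_t020006 to 3.35 ± 2.14 on 23 Feb (n = 4) and 7.14 ± 4.06 on 10 Mar (n = 5).

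At the same calendar date a year later, more of the members were higher than lower. On 26 Oct 2011 52 members were higher than on 27 Oct 2010 (26%, against 13.8% of all tested and 19.6% of the 4708) and 9 lower (4.5%, against 15.0% and 40.0%). The median change was 0.28 on the log2 scale, while that of all transcripts tested was -0.08. With RLE size factors in the same edgeR fit these medians were 0.43 and 0.05, with 70 members higher and 4 lower, and 10067 higher and 7351 lower of all tested in place of 8380 and 9162. With DESeq2 the medians were 0.43 and 0.10. By tree the median was 0.37 in CCTO43, -0.01 in CCTO44 and 0.46 in CCTO90. Without the CCTO43 library of 26 Oct 2011, the one that stands apart, 34 were higher and 5 lower, and the median change was 0.07. In that setting 5975 of 60665 tested were higher and 6429 lower, and of the 4708 650 were higher and 1548 lower. The excess of higher members over transcripts of like level and range was thus small there. The lower side still differed, with 5 of the 200 members against 1548 of the 4708. Age of the needles, the year and the weather of the day cannot be told apart here.

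The largest differences between the Octobers were again those of psme_t020006 and psme_t029262. In October 2010 psme_t020006 had 9 counts over 5 libraries, or 0.0796 CPM ± 0.0395 (SD, n = 5), and in October 2011 it had 32.4 CPM in CCTO43, 33.6 in CCTO44 and 23.6 in CCTO90 (edgeR adjusted p = 7.98e-15). For psme_t029262 there were 6 counts over 5 libraries in 2010, and 17.6, 22.6 and 14 CPM in 2011 (edgeR adjusted p = 1.14e-13). Both were thus at or near 0 from October 2010 to 7 Feb 2011 and did not return to that level by the next October. With so few counts in 2010 a fitted fold change depends on the constant added to the counts, and none is given. The 2 named for a fall were psme_t016389, from 18.1 to 86.3 CPM in 2010 to 7.12, 32.7 and 8.95 CPM in CCTO43, CCTO44 and CCTO90 (log2 change -1.59, SE 0.341, edgeR adjusted p = 0.000276), and psme_t041799, from 5.82 to 18.5 CPM to 0.383, 6.85 and 5.89 (log2 change -1.75, SE 0.662, edgeR adjusted p = 0.0404), whose call was lost without CCTO43, CCTO44, CCTO46 or CCTO90. The call of psme_t041799 was also lost without the CCTO43 library of 26 Oct 2011, which gave the 0.383 CPM. It was lost as well with RLE size factors, without the filter on low counts and without the tree as a block. The groups of psme_t016389 overlapped, and each of the 3 trees was lower in 2011.

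Levels of most members also differed between trees over the whole year, as did those of most transcripts. Of the 200, 161 (80.5%) passed the joint test of the tree terms (edgeR), against 71.5% of all tested and 76.8% of the 4708. The range between the highest and the lowest tree had a median of 0.73 on the log2 scale (1.11 over all tested and 0.66 over the 4708). Among the 161 that passed, it was at least 1 in 63 members and at least 2 in 9. Of the same 161, CCTO44 was the highest tree for 46 members and CCTO43 for 41, and CCTO89 was the lowest for 54. These counts were not made over all transcripts, so they describe the members only. Libraries of a tree on different dates are repeated samples of that tree, and with 5 trees in all nothing can be said of seed sources.

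The smallest adjusted p was that of psme_t021193, which ran higher in CCTO89 (19.8 to 68 CPM, median 28, 13 libraries) and CCTO43 (16 to 35.3 CPM, median 24.2, 9 libraries) than in CCTO44 (median 7.55), CCTO46 (median 10.5) and CCTO90 (median 10.6; edgeR adjusted p = 4.24e-18). In psme_t044421 CCTO44 stood above the rest, with a median of 69.5 CPM over 16 libraries against 10.6 in CCTO43, 19.6 in CCTO46, 11 in CCTO89 and 30.2 in CCTO90 (edgeR adjusted p = 6.29e-13). The medians of both transcripts are over unlike dates, since CCTO43 had no library between 10 Mar and 7 Oct 2011. They thus mix season with tree, whereas the test adjusts for the date. After that adjustment CCTO89, not CCTO43, was the lowest tree for psme_t044421. On 6 May psme_t044421 had 426, 129, 54.6 and 72.9 CPM in CCTO44, CCTO46, CCTO89 and CCTO90. Without CCTO44 its range between trees was 1.38 on the log2 scale in place of 2.84. The widest range, 3.19, was that of psme_t032604 (edgeR adjusted p = 1.3e-12), with CCTO43 highest after adjustment for the date and a range of 1.38 without that tree. The place of CCTO43 rests on its dates up to 10 Mar and in October 2011, without those of April to September. Its lowest level was 1.27 CPM, where that of the other trees was 0.0476 to 0.161 CPM.

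Some members followed each other closely in every library. Over the 66 libraries 14 pairs, made of 28 members, had a Pearson r of at least 0.98 on log2(CPM + 0.5), among them psme_t051510 with psme_t049210 (0.997), psme_t029262 with psme_t020006 (0.997), psme_t042307 with psme_t044965 (0.995) and psme_t006972 with psme_t004114 (0.981). In the pair of psme_t029262 and psme_t020006 the level of psme_t020006 was 1.75 times that of psme_t029262. Over all 19900 pairs of members the median r was 0.606 and 508 were below 0. The libraries share trees and dates, and the members were chosen for a shared peak, so these values describe the set. How reads of near-identical transcripts were assigned is not given, so such pairs cannot be counted as independent members.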

How the data were processed

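Libraries of needle poly(A) RNA kept the strand through dUTP and were read on an Illumina HiSeq, per the labels' protocols. Named in the submitters' processing notes, without an order, are Bowtie2 2.2.3, CASAVA 1.8 and DESeq. The sources used here do not give the transcript reference or the counting tool. The values used are the whole-number counts of the table deposited by the authors, and 2 further deposited tables, of size-factor normalized and interpolated values, were not used. Columns were assigned to libraries through the tree and date in their names, with 0 left over.

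CPM used column sums. Date contrasts and tree terms were tested with edgeR 4.0.16 (limma 3.58.1, R 4.3.3): filterByExpr by date with a minimum count of 10, TMM, robust quasi-likelihood fits of date and tree, F tests, and Benjamini-Hochberg adjustment over 60931 transcripts at 0.05. All 200 members passed the filter. The SE is the log2 change divided by the root of F. Changes within a tree are differences of log2 CPM with TMM factors and a prior count of 2. Tables were handled in Python 3.11.15 with pandas 2.3.3 and numpy 2.4.6. The tests were tested on simulated counts. The trees pair the dates, since the same trees return: 64 of 66 libraries correlated best with their own tree (median r 0.57 with their own tree, -0.15 with others).

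The members, lists and tests were chosen with earlier results of these data known. Members named are the 10 of largest ratio, the 3 of highest mean, those at the limit, and in each comparison the 2 with the largest called change in each direction shared by every tree with both dates; for trees, the 2 of smallest adjusted p and the 2 of widest range. The SDs cover the spread between trees sampled on the same day. The p-values rest on the spread left after date and tree are fitted, taken over all 66 libraries. Both come from trees sampled on the same day for each date. Alternatives were RLE size factors, no filter on low counts, DESeq2 1.42.0, no replicate block, and leaving out each tree, the CCTO43 library of 26 Oct 2011, or the 17 Aug libraries of CCTO44 and CCTO46. For the rule they were TMM or RLE scaling, medians over trees, a floor of 1 CPM, and CPM without the 20 most abundant transcripts.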

Additional observations from a re-analysis of the deposited data

Results flagged for a closer look

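Sets of 4 or 5 libraries of a date were examined, 53 in all. They covered the levels of named members and, apart from these, the share of counts held by all members together. Of the 53 sets, 4 held a library far from the others, where chance gives about 1 in 20. All 4 were sets of named members, so the proportion among those sets alone was higher than 4 of 53. On 6 May psme_t054010 had 171.1 CPM in CCTO46, against 67.4 to 80.2 CPM in the other trees. On 7 Apr psme_t042247 had 6.294 CPM in CCTO89, against 18.7 to 19.9 CPM in the others. On 17 Jun psme_t043043 had 244.2 CPM in CCTO89, against 27.5 to 64.1 CPM in the others. On 6 Jan psme_t029262 had 0.1477 CPM in CCTO46 (0 to 0.0424 CPM in the others), a value of very few counts. Of these 4 values, those of psme_t042247 and psme_t043043 were both in CCTO89, low in April and high in June.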

How the results depend on the processing

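Levels by library total set which transcripts peak on 6 May: 250 met the rule, 580 did with TMM scaling and 533 with RLE size factors, and 150 and 151 of the 200 members were among the 200 then taken. Leaving out a tree gave 192 (CCTO44) to 369 (CCTO46) transcripts, with 135 to 183 of the members among those taken. Without the replicate block by tree, 33 members were higher and 0 lower on 17 Jun than on 7 Apr, 7 higher and 0 lower on 7 Apr than on 10 Mar, 48 lower on 7 Jul than on 17 Jun, and 4 lower on 26 Oct 2011 than on 27 Oct 2010. Without the filter on low counts, 0 were lower in each of the spring comparisons and 34 higher on 26 Oct 2011. DESeq2 gave 4 lower on 7 Apr than on 10 Mar, and RLE size factors 4 lower on 26 Oct 2011. Without the CCTO43 library of that date 34 were higher and 5 lower. Leaving out each tree gave 39 to 65 higher and 0 to 1 lower on 17 Jun than on 7 Apr, 11 to 18 higher and 0 to 5 lower on 7 Apr than on 10 Mar, and 36 to 54 higher and 2 to 9 lower on 26 Oct 2011 than on 27 Oct 2010. The lowest number lower on 7 Jul than on 17 Jun was then 65 (without CCTO46), and the lowest with differences between trees 144 (without CCTO46). The cause of these changes was not tested. Settings that leave out a tree or a library also have fewer libraries, and that effect was not taken apart. No count or named member reversed its direction. Of the values of 18 named results under 11 alternatives, 36 lost their call, all with the same direction. With 3 to 5 trees a date, a member that missed the threshold is not shown to have kept its level.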
